A study of Arabidopsis thaliana with 12 samples.

Results

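The cytochrome P450 genes of Arabidopsis thaliana were described here in seedlings moved between light and darkness. Members were the genes whose symbol is CYP followed by a family number of 2 or 3 digits and a letter, and which had an Affymetrix ATH1 probe set tied to them alone. This rule found 23 genes among 13356 genes that could be followed in this way, each with 1 probe set. The reference gene table lists 236 such P450 symbols, of which 213 have no probe set tied to them alone in the annotation used and were not analysed here. The 23 genes are therefore mainly 1 subfamily: 19 belong to CYP71B, and families CYP51, CYP78, CYP79 and CYP84 have 1 gene each, namely CYP51G2, CYP78A9, CYP79A2 and CYP84A4.

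The 12 arrays form 6 groups of 2, from 3 conditions and 2 RNA pools. The conditions are reillumination (1 h of darkness, then 10 min of light), dark (1 h of darkness started at the midpoint of the day) and light (1 h of continued light, the control). All groups are whole 14-day-old seedlings of the Col-0 line 35S:HF-RPL18B, the controls included, and an untagged line was not analysed here. The line carries a tagged ribosomal protein L18B under the near-constitutive 35S promoter, so ribosomes are captured only from cells in which this promoter drives the tag. Polysomal RNA was recovered with these captured ribosomes, and total RNA was taken from the same extract before capture. Per the labels, the RNA came from independent replicate experiments.

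Cytochromes P450 are haem enzymes that mostly use oxygen and electrons from NADPH to insert an oxygen atom into small molecules. In plants they act in the synthesis and breakdown of hormones, sterols, pigments, wall phenolics and defence compounds. CYP71 is among the largest P450 families of flowering plants, and its subfamily CYP71B includes PAD3, which makes the defence compound camalexin, but many CYP71B genes have no settled substrate. Genes of this subfamily often lie side by side in the genome.

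Values are log2 expression after RMA, a method that makes the distributions of the arrays alike, so each change is relative to the rest of the array. A gene was called when its limma p-value, adjusted by Benjamini-Hochberg over 22746 probe sets, was under 0.05. Replicate arrays correlated at 0.993 to 0.995. The array medians lay between 6.04 and 6.19 and the lower quartiles between 4.07 and 4.17. Of 20 marker genes, 4 had a probe set tied to them alone in the annotation used. The photosynthetic-tissue marker LHCB4.2 read log2 12.65 to 13.41 over all arrays. The root markers BGLU23 and EXPA7 read 12.91 to 13.37 and 4.45 to 5.94, and the anther marker A9, which seedlings should lack, read 3.38 to 3.94.

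For 10 of the 23 P450 genes the mean over the 12 arrays lay below the lower quartile of all probe sets. These dim genes were CYP71B16, CYP71B21, CYP71B25, CYP71B27, CYP71B30P, CYP71B31, CYP71B36, CYP71B38, CYP51G2 and CYP79A2, with array values between log2 3.19 and 4.19. Across the 6 comparisons between conditions their differences ran from -0.36 to 0.14, and between RNA pools from -0.22 to 0.22. None of the 10 was called in any comparison with all arrays and no block. Another 5 genes lay between the lower quartile and the median, and 8 at or above the median, with CYP71B6 at percentile 84.4 and CYP71B26 at percentile 83.8. CYP71B27 and CYP51G2 are annotated as transcribed pseudogenes. The P in CYP71B30P marks a pseudogene in P450 naming, but the reference gene table lists that gene as protein-coding. CYP71B31 is known from flowers, where it oxidizes the scent terpene linalool.

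**Figure D1:**
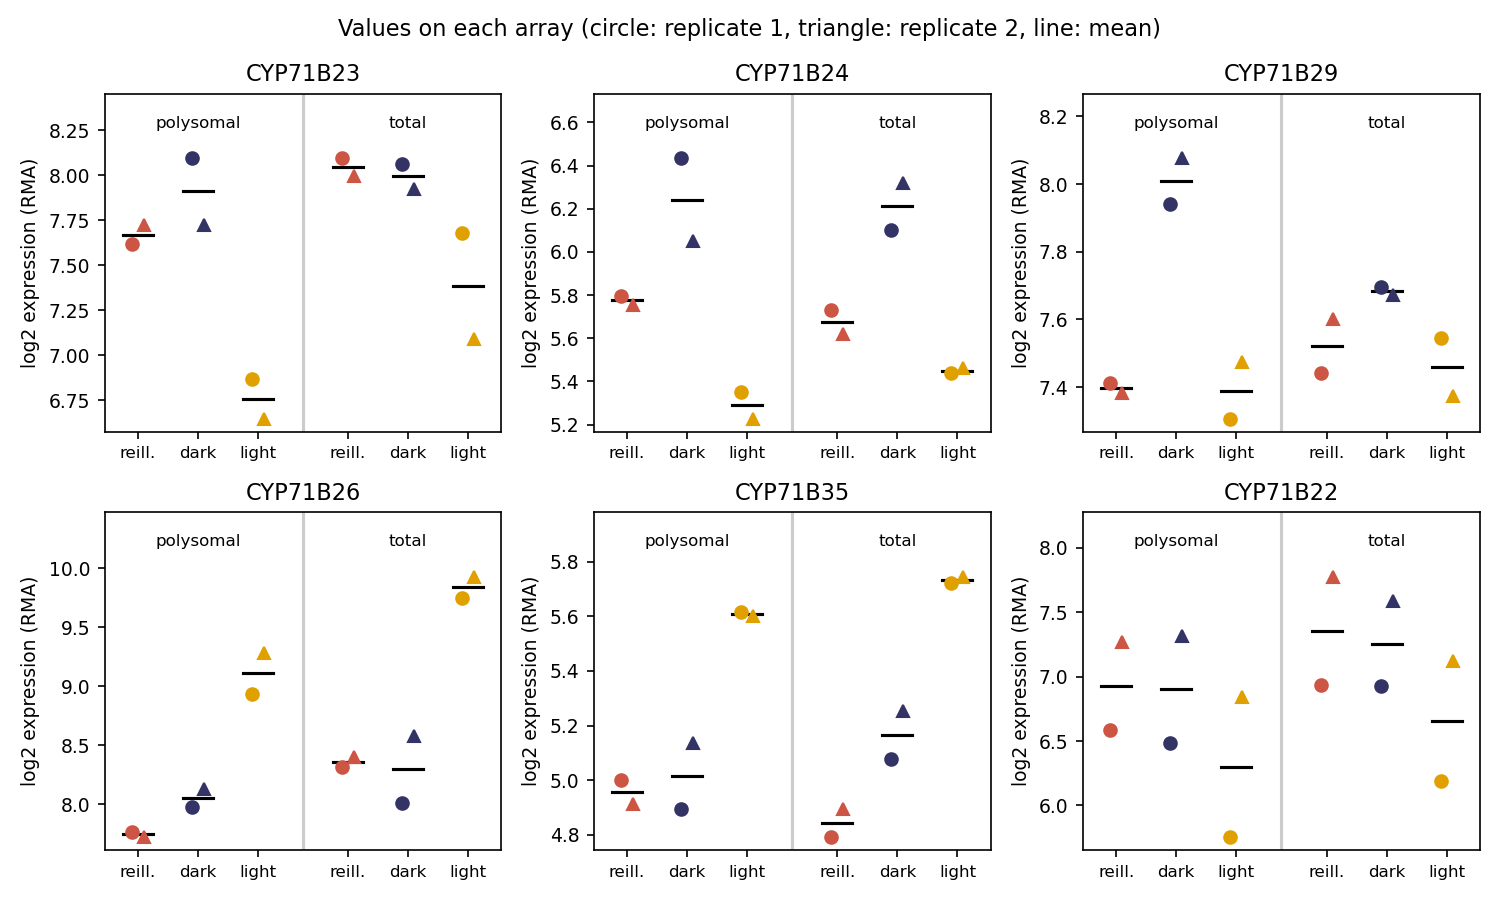
Log2 expression (vertical axes) of the 5 P450 genes called between conditions without the block, and of CYP71B22, on each of the 12 arrays. Circles are replicate 1, triangles replicate 2 and lines the mean of both, with polysomal left of total RNA along the horizontal axes. CYP71B26 and CYP71B35 sit lower on the dark and reillumination arrays than on the light arrays, and CYP71B24 sits higher on the dark arrays than on the light arrays.

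Darkness was compared with light to ask which P450 transcripts respond to 1 h without light. In total RNA, 1 of 23 P450 genes rose and 2 fell, beside 4.38% of all probe sets that rose and 5.07% that fell. In polysomal RNA, 3 of 23 rose and 2 fell, beside 8.49% and 8.68% of all probe sets. CYP71B26 and CYP71B35 fell in both pools, CYP71B24 rose in both, and CYP71B23 and CYP71B29 rose in polysomal RNA. Counting both directions, 13% of the P450 genes were called in total RNA, beside 9.46% of all probe sets, and 21.7% in polysomal RNA, beside 17.2%, so that nothing is read from these shares. The other P450 genes differed by at most 0.61 in total and 0.60 in polysomal RNA on the log2 scale. In whole-seedling RNA, fewer cells of a type and less RNA per cell cannot be told apart. In total RNA, dark over light, LHCB4.2 differed by -0.03, EXPA7 by -0.06 and BGLU23 by -0.13. None of these markers was called there (limma adjusted p = 0.943, 0.925 and 0.663). The shoot marker LHCB4.2 was lower in the dark than in the light in polysomal RNA (-0.34, adjusted p = 0.0453, a call kept in 0 of 12 fits with 1 array left out), and its part in the P450 results was not tested.

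CYP71B26 (AT3G26290), a CYP71B enzyme of unsettled substrate, showed the largest called difference in total RNA among the P450 genes. Its total RNA values were log2 8.32 and 8.40 on the reillumination arrays, 8.01 and 8.57 on the dark arrays, and 9.75 and 9.93 on the light arrays. Its polysomal values were 7.77 and 7.72 after reillumination, 7.98 and 8.13 in the dark, and 8.93 and 9.28 in the light. Every dark and every reillumination array lay below both light arrays of its pool, with no overlap. Dark over light, the fit gave -1.55 ± 0.17 (SE, n = 2 per group; 2.92-fold lower, limma adjusted p = 0.000197) in total RNA. In polysomal RNA it gave -1.06 ± 0.17 (2.08-fold lower, adjusted p = 0.00157).

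CYP71B35 (AT3G26310), a close neighbour of CYP71B26 in the gene order, had a mean at percentile 39.9 of all probe sets. In total RNA it read log2 4.79 and 4.90 after reillumination, 5.08 and 5.25 in the dark, and 5.72 and 5.75 in the light. In polysomal RNA it read 5.00 and 4.91 after reillumination, 4.89 and 5.14 in the dark, and 5.62 and 5.60 in the light. Here too the dark and light arrays did not overlap in either pool. The difference, dark over light, was -0.57 ± 0.11 (adjusted p = 0.00897) in total and -0.59 ± 0.11 (adjusted p = 0.00418) in polysomal RNA. In total RNA the call was lost without dark replicate 1 (adjusted p = 0.0563) or without light replicate 2 (adjusted p = 0.0663).

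CYP71B24 (AT3G26230), from the same stretch of chromosome 3, moved the opposite way. Its total RNA values were log2 5.73 and 5.62 after reillumination, 6.10 and 6.32 in the dark, and 5.44 and 5.46 in the light. Its polysomal values were 5.79 and 5.76 after reillumination, 6.43 and 6.05 in the dark, and 5.35 and 5.23 in the light. In each pool the dark arrays were the highest of the 3 conditions and the light arrays the lowest. Dark over light, CYP71B24 rose by 0.76 ± 0.14 (1.69-fold, adjusted p = 0.00422) in total RNA and by 0.95 ± 0.14 (1.94-fold, adjusted p = 0.00059) in polysomal RNA.

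CYP71B23 (AT3G26210), close to CYP71B24 in the gene order, read log2 8.10 and 8.00 after reillumination, 8.06 and 7.93 in the dark, and 7.68 and 7.09 in the light in total RNA. In polysomal RNA it read 7.62 and 7.72 after reillumination, 8.10 and 7.73 in the dark, and 6.87 and 6.65 in the light. The light arrays were the lowest in both pools, and the light total arrays differed more from each other than the dark total arrays did. In polysomal RNA the gene rose in the dark by 1.15 ± 0.18 (2.22-fold, adjusted p = 0.00125). In total RNA the gene was called with the replicate number as a block (adjusted p = 0.00702) or the extract as a random block (adjusted p = 0.0472). It was also called with arrays centred on their medians (adjusted p = 0.0398) and with dim probe sets filtered out (adjusted p = 0.0493). Without these alternatives the difference was 0.61 ± 0.18 and was not called (adjusted p = 0.0596). That difference was 0.32 without light replicate 2 (adjusted p = 0.448) and 0.91 without light replicate 1 (adjusted p = 0.0136).

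CYP71B29 (AT1G13100), which lies on chromosome 1, read log2 7.41 and 7.38 in polysomal RNA after reillumination, 7.94 and 8.08 in the dark, and 7.31 and 7.47 in the light. In total RNA it read 7.44 and 7.60 after reillumination, 7.69 and 7.67 in the dark, and 7.55 and 7.37 in the light. The dark polysomal arrays stood above the other polysomal arrays, and the dark total arrays likewise stood above the other total arrays, over a narrower range. In polysomal RNA it rose in the dark by 0.62 ± 0.11 (1.54-fold, adjusted p = 0.00308), and in total RNA the difference was 0.22 ± 0.11 (adjusted p = 0.296). The 5 calls in polysomal RNA, those of CYP71B23, CYP71B24, CYP71B26, CYP71B29 and CYP71B35, were kept with each of the 12 arrays left out in turn.

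CYP71B22 (AT3G26200) was chosen for description after its values were seen, because its replicates differed more than those of the other P450 genes. In total RNA it read log2 6.93 and 7.78 after reillumination, 6.93 and 7.59 in the dark, and 6.19 and 7.12 in the light. In polysomal RNA it read 6.59 and 7.27 after reillumination, 6.49 and 7.32 in the dark, and 5.75 and 6.84 in the light. Replicate 2 exceeded replicate 1 in 6 of 6 groups, by 0.66 to 1.09, so the groups overlapped although within each replicate the dark and reillumination arrays were above the light array. Without a block the difference, dark over light, was 0.60 ± 0.45 in total RNA (adjusted p = 0.523) and 0.60 ± 0.45 in polysomal RNA (adjusted p = 0.433). With the replicate number as a block the adjusted p was 0.00243 in total and 0.00142 in polysomal RNA. The block thereby called 5 of 23 P450 genes in total RNA, where it called 15.8% of all probe sets.

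Reillumination was compared with darkness to ask what changed over 10 min of light. No dark or light group was kept 10 min longer, so light and elapsed time cannot be told apart in the comparisons of reillumination. In total RNA 0 of 23 P450 genes were called by limma, beside 0% of all probe sets. At an unadjusted p under 0.05 there were 2 genes, CYP71B24 (-0.54 ± 0.14, adjusted p = 0.949) and CYP71B35 (-0.32 ± 0.11, adjusted p = 0.998), and with the replicate block the count was again 0. In polysomal RNA no P450 gene rose and 1 fell, beside 4.62% and 3.2% of all probe sets. That gene was CYP71B29, at -0.61 ± 0.11 (1.53-fold lower, adjusted p = 0.00917), and its reillumination arrays overlapped with its light arrays. The call was lost without dark replicate 2 (adjusted p = 0.0808) or reillumination replicate 2 (adjusted p = 0.0661) of the polysomal pool.

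CYP71B24 was the next gene in polysomal RNA, at -0.47 ± 0.14 over darkness with adjusted p = 0.0585. The replicate block called it (adjusted p = 0.0227), which made 2 of 23 P450 genes where 15.1% of all probe sets were called. For CYP71B26 the difference, reillumination over dark, was 0.07 with a 95% interval of -0.31 to 0.45 in total RNA and -0.31 with an interval of -0.69 to 0.07 in polysomal RNA. For CYP71B23 it was 0.05 (-0.35 to 0.45) in total and -0.24 (-0.64 to 0.16) in polysomal RNA. These intervals leave room for a change in either direction. LHCB4.2 was higher after reillumination than in the dark in polysomal RNA (0.41, adjusted p = 0.0373, kept in 4 of 12 fits with 1 array left out).

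Reillumination was also set against light, with the same light arrays that served the comparison of darkness, so the values of the comparisons are not independent. In total RNA 1 of 23 P450 genes rose and 2 fell, beside 4.07% and 3.84% of all probe sets. In polysomal RNA 2 rose and 2 fell, beside 4.78% and 4.1%. CYP71B26 fell by 1.48 ± 0.17 (2.79-fold lower, adjusted p = 0.000287) in total and by 1.37 ± 0.17 (2.58-fold lower, adjusted p = 0.00053) in polysomal RNA. CYP71B35 fell by 0.89 ± 0.11 (1.85-fold lower, adjusted p = 0.000587) in total and by 0.65 ± 0.11 (adjusted p = 0.00427) in polysomal RNA.

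CYP71B23 rose by 0.66 ± 0.18 (adjusted p = 0.0487) in total RNA, a call kept in 3 of 12 fits with 1 array left out. Without light total replicate 2 its value was 0.37, more than 1.5 times smaller, with adjusted p = 0.386. In polysomal RNA it rose by 0.91 ± 0.18 (1.88-fold, adjusted p = 0.00909), a call lost without light replicate 2 (adjusted p = 0.0866) or reillumination replicate 2 (adjusted p = 0.0678). CYP71B24 rose in polysomal RNA by 0.49 ± 0.14 (adjusted p = 0.0463), a call kept in 4 of 12 such fits. Its difference in total RNA was 0.23 ± 0.14 (adjusted p = 0.432).

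With the replicate block, CYP71B22 was also called higher after reillumination than in light, in total (adjusted p = 0.000834) and polysomal RNA (adjusted p = 0.00177). In polysomal RNA the block further called CYP71B34 (-0.38, adjusted p = 0.0324) and CYP79A2 (-0.36, adjusted p = 0.0483) lower. CYP79A2, a dim gene, makes the phenylacetaldoxime used for benzyl glucosinolate. The block thus called 7 of 23 P450 genes in polysomal RNA, where it called 15% of all probe sets.

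Of the 5 genes called between conditions without the block, all but CYP71B29 lie close together on chromosome 3. Of the 23 genes 16 are on chromosome 3, and 11 of these form a run in which each is at most 10 genes from the next in the gene order of the reference table: CYP71B16, CYP71B21, CYP71B22, CYP71B23, CYP71B24, CYP71B25, CYP71B26, CYP71B34, CYP71B35, CYP71B36 and CYP71B37. In the comparison of darkness with light, 3 of the 11 genes of the run were called in total RNA, beside 9.46% of all probe sets. In polysomal RNA 4 of the 11 were called, beside 17.2%. These are 3 of the 3 P450 genes called in total RNA and 4 of the 5 called in polysomal RNA. The run holds 11 of the 23 genes that could be followed, so no clustering of calls is read from this. Within the run, CYP71B23 and CYP71B24 were higher and CYP71B26 and CYP71B35 lower in polysomal RNA in the dark than in the light, and CYP71B16, CYP71B21, CYP71B25 and CYP71B36 were dim. Near-identical neighbours can share probe signal, and how far these probe sets cross-hybridize was not tested.

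**Figure D2:**
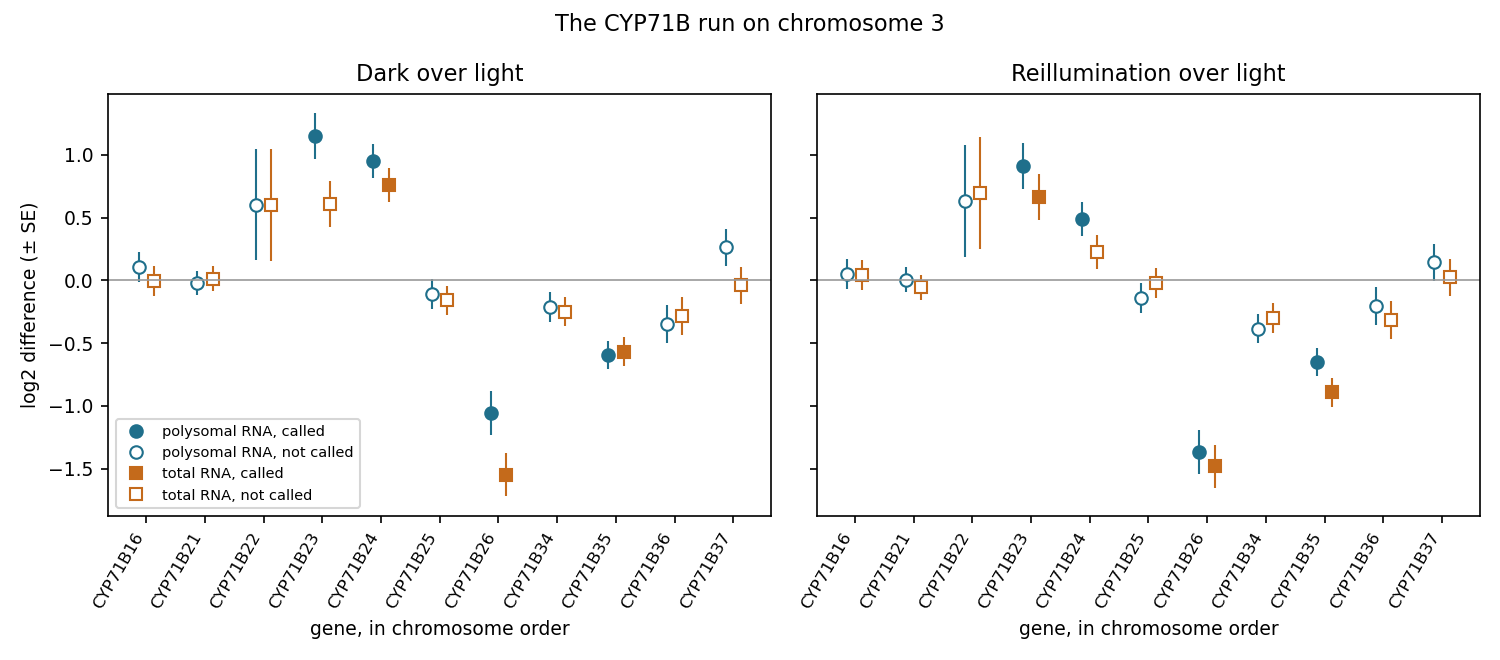
Log2 differences of the 11 CYP71B genes of the chromosome 3 run, in the gene order of the reference table along the horizontal axes, for dark over light and reillumination over light. The vertical axis is the log2 difference, bars are ± 1 standard error from the limma fit, and filled symbols mark calls. CYP71B23 and CYP71B24 lie above 0 and CYP71B26 and CYP71B35 below 0 in the dark, with CYP71B26 lowest at -1.55 in total RNA.

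Polysomal RNA was compared with total RNA to ask how the ribosome-bound pool differs from all transcripts. No P450 gene was called higher in polysomal RNA, beside 14.6% of all probe sets in the light, 11.6% in the dark and 12.7% after reillumination. In the light 6 of 23 were lower, beside 17.6%. In the dark 2 were lower, beside 11.8%, and after reillumination 4 were lower, beside 14.6%. CYP71B6 and CYP71B34 were lower in all 3 conditions, CYP71B26 and CYP71B37 in light and after reillumination, and CYP71B23 and CYP71B28 in light.

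CYP71B6 (AT2G24180) metabolizes indole-3-acetonitrile, a compound of indole defence metabolism. After reillumination it read log2 8.25 and 8.28 in polysomal RNA, against 9.01 and 8.74 in total RNA. In the dark it read 8.55 and 8.21 in polysomal RNA, against 9.05 and 8.75 in total RNA, and in the light 8.38 and 8.20 in polysomal RNA, against 9.06 and 8.91 in total RNA. The polysomal arrays lay below the total arrays in every condition. The differences were -0.61 ± 0.15 (adjusted p = 0.0105) after reillumination, -0.52 ± 0.15 (adjusted p = 0.0273) in the dark and -0.70 ± 0.15 (adjusted p = 0.00419) in the light. The dark call was lost without dark total replicate 1 (adjusted p = 0.192) or dark polysomal replicate 2 (adjusted p = 0.211), and the call after reillumination without replicate 1 of either pool (adjusted p up to 0.0986). No comparison between conditions called this gene.

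CYP71B34 (AT3G26300) read log2 6.93 and 6.83 in polysomal RNA after reillumination, against 7.33 and 7.64 in total RNA. In the dark it read 7.05 and 7.05 in polysomal RNA, against 7.51 and 7.57 in total RNA, and in the light 7.23 and 7.30 in polysomal RNA, against 7.78 and 7.79 in total RNA. The pools were separate in all 3 conditions. The differences were -0.61 ± 0.12 (adjusted p = 0.00262) after reillumination, -0.49 ± 0.12 (adjusted p = 0.0105) in the dark and -0.52 ± 0.12 (adjusted p = 0.00498) in the light. The dark call was lost without dark polysomal replicate 1 or dark total replicate 2, with adjusted p up to 0.0553.

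CYP71B37 (AT3G26330), with a mean at percentile 31.2, read log2 4.38 and 4.07 in polysomal RNA after reillumination, against 4.80 and 4.80 in total RNA, and in the light 4.18 and 3.99 in polysomal RNA, against 4.89 and 4.66 in total RNA. The pools did not overlap in either condition. These polysomal values lay near the lower quartiles of the arrays (log2 4.07 to 4.17), and how far background limits the difference was not tested. The difference was -0.57 ± 0.15 (adjusted p = 0.0129) after reillumination and -0.69 ± 0.15 (adjusted p = 0.00378) in the light. CYP71B26 differed by -0.62 ± 0.17 (adjusted p = 0.0204) after reillumination and by -0.73 ± 0.17 (adjusted p = 0.00702) in the light. In the dark its polysomal and total arrays overlapped, with a difference of -0.24 ± 0.17 (adjusted p = 0.386). With 1 array left out, the call after reillumination was kept in 9 of 12 fits for CYP71B37 (adjusted p up to 0.118) and in 8 of 12 for CYP71B26 (adjusted p up to 0.0981).

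In the light, CYP71B28 (AT1G13090) read log2 6.67 and 6.86 in polysomal RNA, against 7.29 and 7.25 in total RNA, a difference of -0.50 ± 0.12 (adjusted p = 0.00735). CYP71B23 differed by -0.63 ± 0.18 (adjusted p = 0.0209), but without light total replicate 1 the value was -0.33 and the adjusted p 0.213, and without light polysomal replicate 2 the adjusted p was 0.135. The light calls of CYP71B28 and CYP71B26 were also lost without single light arrays, with adjusted p up to 0.0669 and 0.0735.

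The replicate block called 7 of 23 P450 genes in the light, where it called 40.3% of all probe sets, and added CYP71B22 (-0.36, adjusted p = 0.0238). In the dark it called 5, where it called 32.1% of all probe sets, and the added genes were CYP71B22 and CYP71B37, lower, and CYP71B29, higher in polysomal RNA by 0.32 (adjusted p = 0.0387). After reillumination it called 7, where it called 35.7%, and the added genes were CYP71B22 and CYP71B23, lower, and CYP84A4, higher in polysomal RNA by 0.33 (adjusted p = 0.0443).

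Tissue markers also moved between the pools. The root marker EXPA7, a root-hair expansin, was lower in polysomal than in total RNA, with differences of -1.04 after reillumination, -0.98 in the dark and -1.11 in the light, and BGLU23 was lower in the light (-0.37, adjusted p = 0.0361). The shoot marker LHCB4.2, a chlorophyll-binding protein, was lower in polysomal RNA in the dark (-0.67, adjusted p = 0.00101) and in the light (-0.35, adjusted p = 0.0262), while its adjusted p was 0.623 after reillumination. With arrays centred on their medians the light calls of BGLU23 (adjusted p = 0.105) and LHCB4.2 (adjusted p = 0.119) were lost, and that of BGLU23 also with quantile normalization within each pool (adjusted p = 0.0512). With 1 array left out they were kept in 8 and 9 of 12 fits, with adjusted p up to 0.172 for each. After reillumination BGLU23 was called lower with the replicate block (adjusted p = 0.0306) and with the extract as a random block (adjusted p = 0.0324). The markers that could be followed were 1 of 7 listed for shoot, 2 of 8 for root and 1 of 5 for anther. Their part in the P450 results was not tested.

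**Figure D3:**
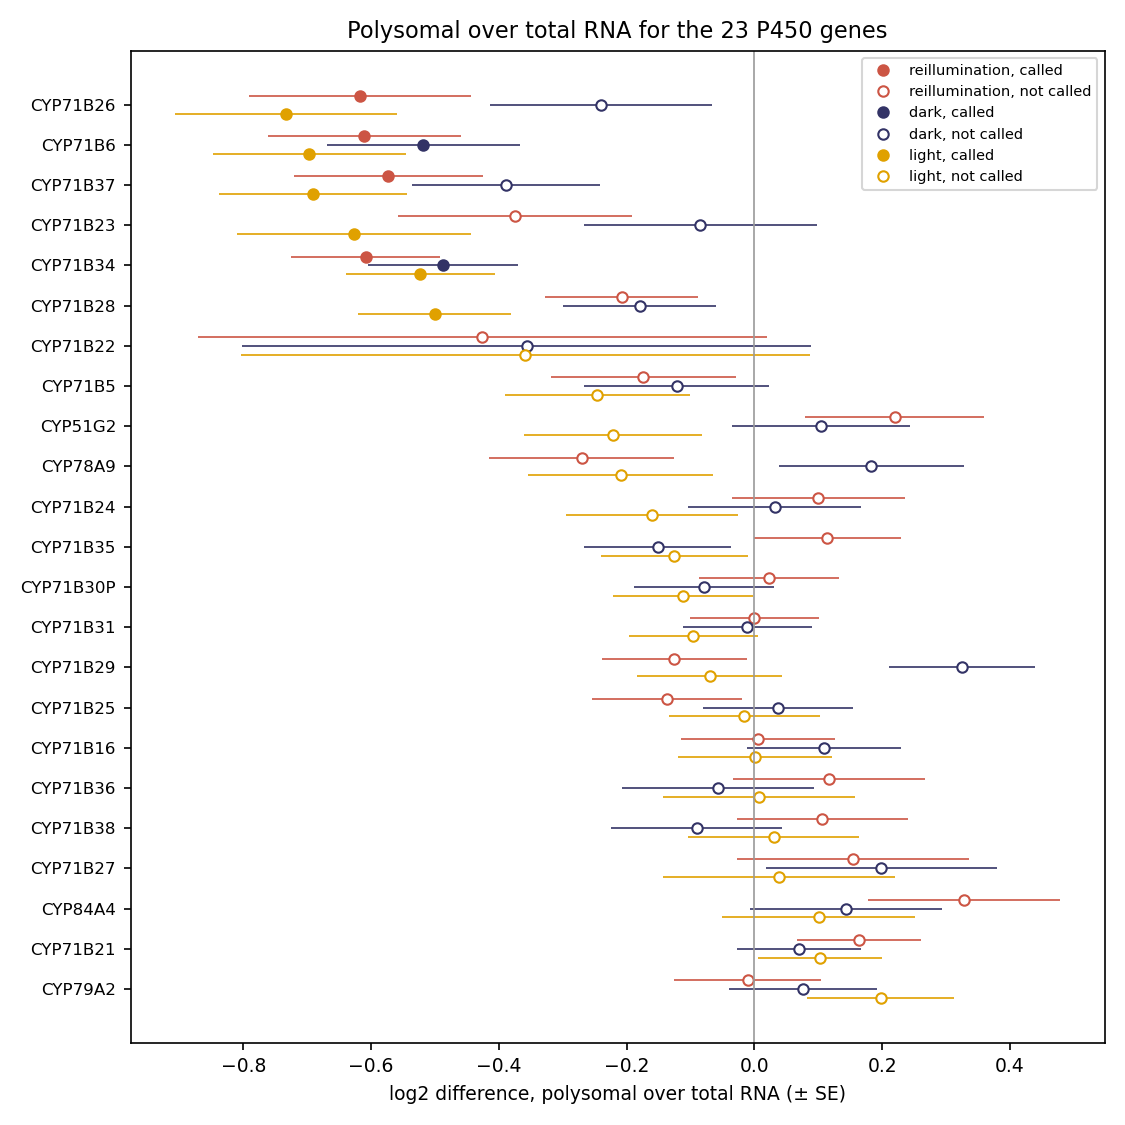
Difference between polysomal and total RNA, on the log2 scale along the horizontal axis, for the 23 P450 genes after reillumination, in the dark and in the light. Bars are ± 1 standard error from the limma fit and filled symbols mark calls, and CYP71B6 and CYP71B34 are filled and below 0 in all 3 conditions.

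The difference between the pools was tested for change between conditions, which is the test of unequal change in polysomal and total RNA. For darkness against light 0 of 23 P450 genes were called by limma, beside 1.09% of all probe sets. For reillumination against dark 0 of 23 were called, beside 0.994%, and for reillumination against light 0 of 23, beside 0%. At an unadjusted p under 0.05 there were 1, 2 and 1 P450 genes, and the replicate block also called 0 in each.

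CYP71B29 had the smallest unadjusted p for dark against light, a change of 0.39 ± 0.16 (adjusted p = 0.234), and for reillumination against dark its change was -0.45 ± 0.16 (adjusted p = 0.222). CYP78A9 was the other gene in that comparison, at -0.45 ± 0.20 (adjusted p = 0.347), and CYP51G2 the one for reillumination against light, at 0.44 (adjusted p = 1). CYP71B23 was called in darkness in polysomal RNA, and in total RNA only in some alternatives. Its change was 0.54 with a 95% interval of -0.02 to 1.11 (adjusted p = 0.315). For CYP71B26 it was 0.49 with an interval of -0.05 to 1.03 (adjusted p = 0.341). Of the 23 genes, 10 of them dim, 5 had a change below 0 for dark against light (21.7%), beside 47.9% of all probe sets, and the median change was 0.11 beside 0.02.

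By P450 family, without the block, calls were found in CYP71 and none in the 4 genes of other families. Of these, CYP51G2 and CYP79A2 were dim. Among all probe sets, 9.46% were called for dark over light in total RNA and 17.2% in polysomal RNA. For polysomal over total RNA in the light the share was 32.3%. With 4 genes, nothing is read from their lack of calls. The replicate block called CYP79A2 and CYP84A4 in 1 comparison each. Over the 19 CYP71B genes, the median difference, dark over light, was -0.07 in total RNA and 0.01 in polysomal RNA, and reillumination over light it was -0.06 in total and 0.01 in polysomal RNA. Of all 23 P450 genes 10 were dim. In total RNA 17 of the 23 had a dark value below the light value (73.9%), beside 55% of all probe sets, and the median difference was -0.08 beside -0.02. In polysomal RNA the share was 47.8% beside 53.2%. The genes were read on the same arrays, so no family-wide change is read from these shares.

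**Figure D4:**
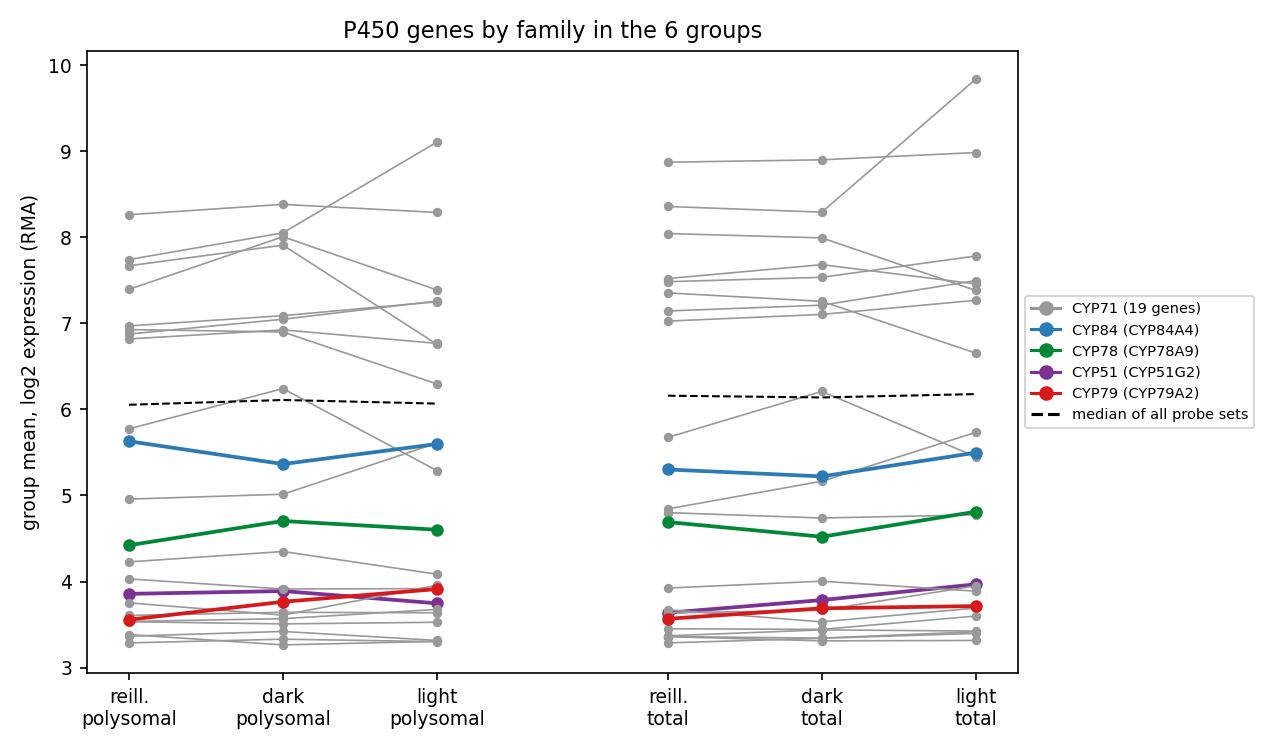
Group means by P450 family number on the log2 scale, for CYP71 (19 genes) and the 4 families with 1 gene, each point 1 gene in 1 of the 6 groups, with polysomal left of total RNA and reillumination left of dark and light. Lines join the groups of a gene, the dashed line is the median of all probe sets, and the 4 single genes lie at or below log2 5.63.

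Of the single genes of other families, CYP84A4, CYP78A9 and CYP79A2 have known or proposed roles, and CYP51G2 is annotated as a transcribed pseudogene. CYP84A4, which acts in the synthesis of arabidopyrones from phenylpropanoid precursors, read log2 5.49 and 5.77 in polysomal RNA after reillumination, 5.15 and 5.58 in the dark, and 5.59 and 5.61 in the light. In total RNA it read 5.24 and 5.37 after reillumination, 5.22 and 5.22 in the dark, and 5.41 and 5.59 in the light. The light arrays lay above the dark arrays in both pools, but only narrowly in polysomal RNA, where the closest arrays read 5.59 and 5.58. The differences were -0.28 ± 0.15 in total and -0.23 ± 0.15 in polysomal RNA, and neither was called (adjusted p = 0.342 and 0.36).

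CYP78A9, a regulator of fruit and seed size, had group means of log2 4.42 after reillumination, 4.70 in the dark and 4.60 in the light in polysomal RNA. In total RNA they were 4.69 after reillumination, 4.52 in the dark and 4.81 in the light. Dark over light it differed by 0.10 ± 0.14 in polysomal RNA and by -0.29 ± 0.14 in total RNA (adjusted p = 0.725 and 0.283). CYP79A2 had group means of 3.56 after reillumination, 3.76 in the dark and 3.91 in the light in polysomal RNA. In total RNA its group means spanned 3.57 to 3.71. CYP51G2, a relative of the sterol demethylase, had 3.64 after reillumination, 3.78 in the dark and 3.97 in the light in total RNA. In polysomal RNA its group means spanned 3.75 to 3.89, and without the block neither gene was called. Without light total replicate 1, at log2 3.75 beside 4.19 for replicate 2, CYP51G2 was called lower after reillumination than in light in total RNA (adjusted p = 0.0431) and lower in polysomal than in total RNA in the light (adjusted p = 0.0375).

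Pathway genes that work with P450s could be followed for few cases. Of 55 listed partner genes, 3 had a probe set tied to them alone in the annotation used. HCT, the hydroxycinnamoyltransferase that acts beside the phenylpropanoid P450s, read log2 9.11 and 8.97 in polysomal RNA in the dark, against 9.64 and 9.65 in the light, and in total RNA 9.22 and 8.81 in the dark, against 9.69 and 9.83 in the light. It fell in the dark by 0.74 (adjusted p = 0.00483) in total and by 0.61 (adjusted p = 0.00882) in polysomal RNA, without overlap of the arrays. The total RNA call was lost without light replicate 2 (adjusted p = 0.0554), and the polysomal call without light replicate 2 (adjusted p = 0.0555) or dark replicate 2 (adjusted p = 0.0711). After reillumination HCT was also called lower than in light, at -0.50 (limma adjusted p = 0.0419) in total and -0.51 (adjusted p = 0.0354) in polysomal RNA. These 2 calls were kept in 2 and 8 of 12 fits with 1 array left out. UGT74B1, a glucosyltransferase of glucosinolate synthesis, differed in the dark by -0.37 ± 0.16 in total and 0.20 ± 0.16 in polysomal RNA (adjusted p = 0.195 and 0.47), and the replicate block called it in total RNA (adjusted p = 0.0426). The block also called its change of polysomal over total RNA for dark against light (0.57, adjusted p = 0.0478), its difference for reillumination over dark in polysomal RNA (-0.47, adjusted p = 0.0132) and for reillumination over light in total RNA (-0.40, adjusted p = 0.0298). BCAT4, an aminotransferase of methionine-derived glucosinolate synthesis, was not called between dark and light, and in the dark it was higher in polysomal than in total RNA (0.66, adjusted p = 0.0455, kept in 6 of 12 fits with 1 array left out). That value was 0.40 without dark polysomal replicate 1 and 0.41 without dark total replicate 2, and the call was also lost with quantile normalization within each pool (adjusted p = 0.0516). The 17 lists of P450s by pathway, such as those for brassinosteroid synthesis, abscisic acid breakdown and carotenoids, held 1 of the 23 genes in 6 cases, 1 gene each.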

How the data were processed

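Total and polysomal RNA of 12 samples was measured on 12 ATH1 arrays. The authors deposited log2 expression values per probe set, made with RMA and affy per the submitters' processing notes, which name no versions. RMA corrects background, quantile-normalizes and summarizes probes. No build is named for these values, and gene positions are left out.

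Of 22810 probe sets, 64 controls were set aside and 22746 tested. Names came from the platform annotation (13513 probe sets with 1 gene, 503 with several, 8730 not listed), updated through a RefSeq gene table of TAIR10.1, which matched 13436 and did not match 77. Of P450 probe sets, 2 shared by 3 P450 genes were left out. Limma 3.58.1 in R 4.3.3 fitted 6 group means to all 12 arrays with empirical Bayes moderation (6 residual and 5.48 prior degrees of freedom), with two-sided tests adjusted by Benjamini-Hochberg over all 22746 probe sets. The procedure was run on simulated data with independent noise on each array and planted log2 changes of 1 and 2. That setting leaves out smaller changes and the shared deviations of same-numbered replicates, so nothing is concluded from it here. Arrays have no counting depth, and precision rests on the number of arrays, with a median standard error per difference of 0.13 over all probe sets.

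The members and lists were chosen with earlier results of these data known. P450 genes were named when called between conditions or in a change between them, when among the 8 largest called differences in each direction between pools, or when in a pathway list; dim genes were listed for completeness. Per the labels, polysomal and total RNA come from 2 replicate experiments. Same-numbered arrays deviated together in all 15 pairs of groups (correlation 0.29 to 0.51), so the numbers were taken as pairs and the replicate was fitted as a block as an alternative. Other alternatives were the extract as a random block, median centring, quantile normalization within each pool and an intensity trend. Further ones were a filter on dim probe sets (highest group mean under log2 5), the probe set by mean, and each array left out.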

Additional observations from a re-analysis of the deposited data

How the results depend on the processing

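The limma results gave 28 calls of a P450 gene in a comparison. All 28 kept their direction, and 15 their call, in each alternative that tested them, the arrays left out included. The filter on dim probe sets tested 26 of the 28 and left out the 2 calls of CYP71B37. With the replicate block, none of the 28 calls was lost and 15 were added. The counts of P450 genes called with the block were 5 for dark over light in total RNA, 2 for reillumination over dark and 7 for reillumination over light in polysomal RNA, and, for polysomal over total RNA, 7 after reillumination and 5 in the dark. With the extract as a random block the count for polysomal over total RNA in the dark was 4, and the filter on dim probe sets, which tested 11 members, gave 2 for reillumination over dark in polysomal RNA. With 1 array left out in turn, the counts were 0 to 1 for reillumination over dark and 2 to 4 for reillumination over light in polysomal RNA. For polysomal over total RNA they were 1 to 4 after reillumination and 1 to 2 in the dark. The cause of these moves was not tested. Centring on the medians lost 1 call, CYP71B26 between pools after reillumination (adjusted p = 0.0653), and added 2. CYP71B24 for reillumination over light in polysomal RNA was lost with the extract block (adjusted p = 0.057) and the intensity trend (adjusted p = 0.0774). Choosing probe sets by mean changed nothing, since each member has 1. With 2 arrays a group and no block, small differences in these P450 genes cannot be resolved. The block called some small ones, such as 0.32 for CYP71B29 between pools in the dark.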
